A study of Homo sapiens with 6 samples.

Results

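Subtelomeric open regions were the merged open regions whose center lay within 1 Mb of either end of an hg38 chromosome, and 998 of the 48417 merged regions of chromosomes 1 to 22 met this rule (2.06%). A merged region joined open regions of the 6 libraries that overlapped or touched, so that a member of this set was open in at least 1 library. Accessible chromatin was mapped by ATAC-seq, in which Tn5 transposase inserts adapters into open DNA, in wild-type MCF10A cells, an established non-tumorigenic human mammary epithelial line. After 30 min in HHBSS buffer, cells received for 30 min no addition (control), 50 μM TPA, a Zn2+ chelator, or 30 μM ZnCl2, and each condition had 2 libraries. The methods call these replicates biological and the results call them technical, so p-values measure only the spread between these libraries. As the cells were analysed in bulk, fewer cells with an open site and a less open site in every cell cannot be told apart.

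Human chromosomes end in long arrays of the hexamer TTAGGG, which shelterin proteins bind and telomerase extends. Next to these arrays lie subtelomeres, blocks of sequence duplicated between chromosome ends, with pseudogene families such as WASH and DDX11L and with CTCF sites near the promoters of the telomeric transcript TERRA. Further inside, many ends are rich in genes and in GC, with unmethylated CpG islands at promoters.

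Of the 998 members, 535 and 841 were open in control replicates 1 and 2, 627 and 686 in TPA replicates 1 and 2, and 857 and 508 in ZnCl2 replicates 1 and 2. The lists themselves were of unequal length, with 18597 regions in ZnCl2 replicate 2 and 43674 in control replicate 2 on these chromosomes. For this reason treatments were also compared with an equal number, the 18597 highest-scoring regions of each list. Depth is unknown, as read counts are no part of these lists. Each gene had 1 start site here, the upstream end of its gene model, so that starts inside a gene were not counted. Among start sites of epithelial genes, those of KRT18 and ITGB4 were open in all 6 libraries, that of EPCAM in 1 and that of TP63 in 0, while 10 of 12 markers of other cell types were open in 0 libraries and COL1A1 and GFAP in 1 each.

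The sequences below are from the plus strand of hg38 and were chosen because they carry the patterns described afterwards. The first 3 sequences show CpG-rich members, with each CG dinucleotide in capitals. The members of 16p and 12p lie about 11 kb from their ends, and the third is the stretch just upstream of the FARP2 start site on 2q, the member with the highest scores. They hold 40, 42 and 30 CG dinucleotides in 300 bases.
16p, chr16:10431-10730: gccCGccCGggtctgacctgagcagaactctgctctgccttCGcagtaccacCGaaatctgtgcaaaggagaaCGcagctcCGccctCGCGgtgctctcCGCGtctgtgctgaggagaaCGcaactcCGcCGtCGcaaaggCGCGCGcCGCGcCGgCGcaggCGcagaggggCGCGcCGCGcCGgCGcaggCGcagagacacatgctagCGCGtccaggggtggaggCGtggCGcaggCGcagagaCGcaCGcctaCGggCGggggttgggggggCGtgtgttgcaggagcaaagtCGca
12p, chr12:10951-11250: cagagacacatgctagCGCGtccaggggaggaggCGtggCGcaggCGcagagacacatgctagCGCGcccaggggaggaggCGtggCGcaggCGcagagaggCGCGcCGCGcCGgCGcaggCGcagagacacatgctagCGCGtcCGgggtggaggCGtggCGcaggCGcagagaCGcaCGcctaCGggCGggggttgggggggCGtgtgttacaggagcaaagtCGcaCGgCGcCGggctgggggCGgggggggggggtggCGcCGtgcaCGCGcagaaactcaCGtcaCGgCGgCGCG
2q, chr2:241355826-241356125: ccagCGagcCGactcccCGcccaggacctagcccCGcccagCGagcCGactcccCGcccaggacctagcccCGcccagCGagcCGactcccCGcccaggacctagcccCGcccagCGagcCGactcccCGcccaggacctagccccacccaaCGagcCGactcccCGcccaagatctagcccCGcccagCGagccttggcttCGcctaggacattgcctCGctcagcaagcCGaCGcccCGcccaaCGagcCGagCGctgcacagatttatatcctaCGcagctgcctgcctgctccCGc

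The last 7 sequences are windows of members that ranked high or that differed between treated and control lists. Capitals mark the motifs searched on both strands, which were TGANTCA (the AP-1 site), GGGCGG (the GC box of SP factors), TGCACNC and TGCGCNC (forms of the metal response element core) and AGGGGGCGC (the core of the CTCF site). On either strand, GGGCGG and AGGGGGCGC can share at most an end base. The members of 10p and 22q hold tandem AP-1 sites and that of 19p tandem GC boxes, whereas the repeats of the 17p window hold none of these letters.
10p, ranked higher with TPA, chr10:264736-265035: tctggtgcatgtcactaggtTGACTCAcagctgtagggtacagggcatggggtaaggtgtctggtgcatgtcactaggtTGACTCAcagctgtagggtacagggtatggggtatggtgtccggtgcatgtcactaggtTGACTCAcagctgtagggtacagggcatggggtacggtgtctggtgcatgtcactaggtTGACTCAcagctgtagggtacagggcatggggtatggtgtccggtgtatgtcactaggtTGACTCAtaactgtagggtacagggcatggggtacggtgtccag
22q, high in every library, chr22:50759751-50760050: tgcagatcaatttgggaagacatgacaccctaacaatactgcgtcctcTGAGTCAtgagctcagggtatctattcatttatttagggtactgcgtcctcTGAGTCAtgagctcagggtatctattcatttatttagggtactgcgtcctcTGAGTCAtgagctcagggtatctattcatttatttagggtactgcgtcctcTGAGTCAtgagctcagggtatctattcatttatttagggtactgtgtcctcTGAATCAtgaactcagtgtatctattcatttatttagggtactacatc
19p, ranked lower with TPA, chr19:873106-873405: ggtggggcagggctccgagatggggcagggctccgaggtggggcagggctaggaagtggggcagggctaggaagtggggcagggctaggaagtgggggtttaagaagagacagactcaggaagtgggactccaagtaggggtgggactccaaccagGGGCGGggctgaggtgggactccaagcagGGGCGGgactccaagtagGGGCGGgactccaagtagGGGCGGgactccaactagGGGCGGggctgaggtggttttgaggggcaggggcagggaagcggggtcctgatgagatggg
22q, gained with TPA, chr22:50027921-50028220: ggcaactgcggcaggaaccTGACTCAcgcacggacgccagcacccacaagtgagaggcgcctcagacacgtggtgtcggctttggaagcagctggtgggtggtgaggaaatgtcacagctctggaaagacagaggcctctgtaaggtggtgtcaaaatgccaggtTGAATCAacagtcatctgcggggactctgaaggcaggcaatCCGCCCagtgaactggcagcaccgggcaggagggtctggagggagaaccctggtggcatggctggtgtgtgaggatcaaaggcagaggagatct
12p, lost with TPA, chr12:453451-453750: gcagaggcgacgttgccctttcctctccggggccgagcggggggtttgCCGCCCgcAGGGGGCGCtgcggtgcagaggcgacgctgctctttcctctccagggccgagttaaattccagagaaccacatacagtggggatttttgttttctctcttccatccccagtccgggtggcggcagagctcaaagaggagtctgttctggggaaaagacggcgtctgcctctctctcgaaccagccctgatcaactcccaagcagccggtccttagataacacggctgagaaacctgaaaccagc
17p, gained with ZnCl2, chr17:215786-216085: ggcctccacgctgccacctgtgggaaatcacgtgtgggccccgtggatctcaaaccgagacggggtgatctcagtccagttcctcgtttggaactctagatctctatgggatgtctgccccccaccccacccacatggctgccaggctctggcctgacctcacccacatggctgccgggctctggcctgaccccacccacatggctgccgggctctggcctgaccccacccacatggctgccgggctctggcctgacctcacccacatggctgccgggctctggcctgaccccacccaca
2p, lost with ZnCl2, chr2:71531-71830: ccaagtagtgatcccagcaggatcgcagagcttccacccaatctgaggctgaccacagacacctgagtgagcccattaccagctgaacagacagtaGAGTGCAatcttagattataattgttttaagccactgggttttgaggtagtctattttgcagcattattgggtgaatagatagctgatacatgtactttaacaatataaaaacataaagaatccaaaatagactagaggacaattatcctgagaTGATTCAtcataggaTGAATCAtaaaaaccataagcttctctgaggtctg

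To determine whether chromosome ends are more open than the rest of the same chromosomes, the density of open regions was compared within each library, each library giving 1 value for the ends and 1 for the rest. Open regions were denser at the ends in every library. Control replicates 1 and 2 had 15.8 and 24.0 regions per Mb of sequence at the ends against 8.85 and 15.7 elsewhere, TPA replicates 18.7 and 20.1 against 12.7 and 14.6, and ZnCl2 replicates 25.1 and 14.5 against 13.4 and 6.64. Within each library the ends had the higher value, while across libraries, whose lists differ in length, the values for ends and rest overlapped. The density was 1.70-fold ± 0.304 that of the rest (SD, n = 6), a log2 ratio of 0.75 ± 0.25 (two-sided exact sign-flip permutation test over 6 libraries, p = 0.0312, adjusted p = 0.0312 over 6 measures, which is the smallest p that 6 libraries allow). When each chromosome was compared with itself and the values averaged over chromosomes, the log2 ratio was 0.607 (exact sign-flip permutation test, p = 0.0312).

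The end windows were also richer in genes. They held 1.35% of the sequence of these chromosomes, with a GC content of 48.2% against 40.9% elsewhere, and 623 start sites of protein-coding genes, 3.36% of all. Coding start sites were thus 2.54-fold denser at the ends than elsewhere, and merged open regions 1.54-fold denser. Of the coding start sites at the ends, 54.7% were open per library on average, against 52.3% elsewhere, a difference of 2.46 points ± 1.21 (SD, n = 6, higher in 6 of 6 libraries, exact sign-flip permutation test, p = 0.0312, adjusted p = 0.0312). It was 2.11 points with an equal number of regions, with TPA replicate 2 at -0.816, and missed 0.05 (exact permutation p = 0.0938). It turned to -0.42 points with windows of 500 kb (exact permutation p = 0.469) and to -1.91 points without regions that hold repeated sequence (exact permutation p = 0.0625). In other settings it was larger, at 3.50 points with windows of 2 Mb and 4.37 with each chromosome compared with itself (exact permutation p = 0.0312 in each).

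**Figure D1:**
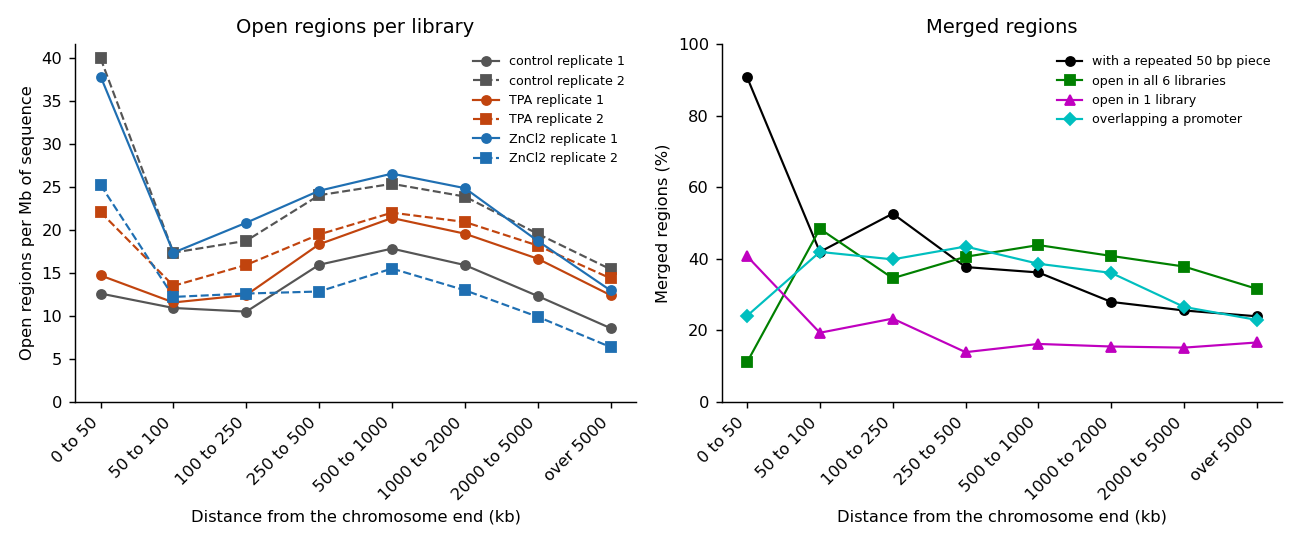
Open regions per Mb of sequence in each library (left) and percentage of merged regions that hold a repeated piece, are open in all 6 libraries or in 1, or overlap a promoter (right), by classes of distance from the chromosome end in kb. Within 50 kb of an end the libraries spread from 12.6 (control replicate 1) to 39.9 per Mb (control replicate 2), and 90.7% of the merged regions there held a repeated piece.

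Regions at the ends differed from the rest in composition, width and rank as well. Their GC content averaged 60.9 and 56.6% in the control libraries, 59.2 and 58.5% in the TPA libraries and 58.7 and 58.7% in the ZnCl2 libraries. For regions elsewhere it was 52.8 and 48.3%, 50.2 and 49.4%, and 51.1 and 51.9%, so that the ends and the rest did not overlap. The difference was 8.16 points ± 0.867 (SD, n = 6, higher in 6 of 6 libraries, exact sign-flip permutation test, p = 0.0312, adjusted p = 0.0312). Regions at the ends were also wider, by 312.5 bp ± 67.4 in the median (1762.5 bp against 1450 bp over the 6 libraries), and stood 5.00 ± 0.751 points higher in mean score percentile (54.0 against 49.0), each in 6 of 6 libraries (exact sign-flip permutation test, p = 0.0312, adjusted p = 0.0312, n = 6). The score percentile is the percentage of regions of the same list with a lower score. Among regions without a promoter the differences in width and percentile were smaller and missed 0.05, at 89.2 bp (exact permutation p = 0.0625) and 1.62 points (exact permutation p = 0.0938).

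Promoters took a larger part of the subtelomeric regions. A promoter, here the 1000 bp upstream of a start site, was overlapped by 53.1 and 41.7% of the subtelomeric regions in the control libraries, by 45.5 and 44.3% in the TPA libraries and by 40.9 and 54.3% in the ZnCl2 libraries. Elsewhere the shares were 34.8 and 24.8%, 26.5 and 24.2%, and 28.4 and 42.8%. The mean difference was 16.4 points ± 3.54 (SD, n = 6, higher in 6 of 6 libraries, exact sign-flip permutation test, p = 0.0312, adjusted p = 0.0312). With the promoter holding the region's center in place of any overlap, the difference was 8.53 points (exact permutation p = 0.0312). Of the 998 members, 392 held a promoter or start site (39.3%, against 23.4% of the other merged regions), 208 lay in an exon (20.8% against 16.3%), 167 in an intron (16.7% against 30.2%) and 231 outside genes (23.1% against 30.1%).

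The GC content of members was higher than that of the rest in each of these 4 classes. Members with a promoter or start site had a mean GC content of 59.6% against 53.4% for such regions elsewhere, those in exons 55.6% against 49.6%, those in introns 52.3% against 44.3% and those outside genes 53.3% against 45.5%. The motifs are given as a description of the 300 bp around each region's center, not matched for GC content. The GC box GGGCGG was present in 355 members (35.6%, against 19.4% of all merged regions), the CTCF core AGGGGGCGC in 20 (2.00% against 0.827% of the rest) and TGCGCNC in 154 (15.4% against 7.83% of the rest). TGCACNC was present in 17.2% of members and 15.4% of the rest. The AP-1 site TGANTCA, bound by FOS and JUN proteins, was present in only 134 members (13.4%, against 27.2% of the rest), and its share was lower both in introns (21.6% against 37.5%) and outside genes (20.8% against 34.8%).

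Members differed in how many libraries called them. All 6 libraries shared 401 members (40.2%, where 32.3% of all merged regions were open in all 6), and 180 were open in 1 library (18.0%, against 16.5% of the rest). Among members with a promoter or start site the share open in all 6 was 66.6%, beside 65.7% of such regions elsewhere. Of the 180, 99 were found in ZnCl2 replicate 1, 52 in control replicate 2, 18 in TPA replicate 2, 8 in ZnCl2 replicate 2, 3 in TPA replicate 1 and 0 in control replicate 1. Of the 7845 such regions elsewhere, 3141 were found in control replicate 2, 2216 in ZnCl2 replicate 1 and 1965 in TPA replicate 2. TPA replicate 1 had 451 of them, ZnCl2 replicate 2 had 56 and control replicate 1 had 16.

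The first 50 kb differed from the rest of the window. The 54 members within 50 kb of an end had a density of 56.8 per Mb, against 19.9 per Mb from 50 to 100 kb and 27.6 per Mb from 500 to 1000 kb. Of these 54, 90.7% held a repeated piece, which was a stretch of 50 bp with another exact copy on chromosomes 1 to 22, X or Y, and only 11.1% were open in all 6 libraries while 40.7% were open in 1. Over all members 418 held such a piece (41.9%, against 24.1% of the rest). How the aligner placed read pairs with several equal matches is not given in the sources used here, and the part of such reads in these calls was not tested. At the border of the set, the 59 members from 950 to 1000 kb had a mean GC content of 57.1% ± 7.86 (SD over regions) and the 54 regions from 1000 to 1050 kb one of 57.8% ± 7.56. The zone from 1000 to 2000 kb was close to the members, with 26.0 merged regions per Mb against 26.8. Its regions had a mean GC content of 56.5%, 36.1% overlapped a promoter and 40.8% were open in all 6 libraries. The values over all members were 56.1, 39.3 and 40.2%, so these traits were not particular to the last 1 Mb.

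Within 15 kb of an end lay 20 members on 17 arms, all with a repeated piece. Of these, 15 and 7 were called in ZnCl2 replicates 1 and 2, 1 and 9 in the control replicates and 1 and 5 in the TPA replicates. Groups overlapped, since control replicate 2 exceeded ZnCl2 replicate 2. The member of 16p (chr16:10041-11120), which overlaps the promoters of the DDX11L16 and DDX11L10 genes of the duplicated DDX11L family, was the only one of the 20 open in all 6 libraries. Its percentile was 93.8 and 96.4 for the control, 93.0 and 89.4 for TPA and 94.4 and 83.8 for ZnCl2.

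The other terminal members were called in fewer libraries. The member of 15q (chr15:101979631-101980770, promoters of DDX11L16 and DDX11L9) stood at percentile 85.5 in control replicate 2 and 85.9 in ZnCl2 replicate 1 and was absent elsewhere. It aligned to the member of 16p over 964 bases with 95.7% identity on the opposite strand, and the member of 12p shown above aligned to that of 16p over 494 bases with 98.2% identity. Reads of such members could therefore match more than 1 end. The member of 1p (chr1:10571-10980, promoter of DDX11L2) was called in control replicate 2 and both ZnCl2 libraries at percentiles of 21.99, 12.9 and 0. The member of 19q (chr19:58606041-58607340) was called in control replicate 2 and ZnCl2 replicate 1 at 9.19 and 9.85.

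Telomere repeats reached into the lists at a few places. At least 2 tandem copies of TTAGGG were present in 14 members (1.40%), against 39 of the other merged regions (0.0822%). The terminal arrays of 1q, 3p and 17q were each called in 1 or 2 libraries with low scores. The member of 1q (chr1:248945801-248946430) stood at percentiles 30.2 and 21.5 in the ZnCl2 libraries, that of 3p (chr3:10131-10640) at 0, the lowest score of its list, in ZnCl2 replicate 1, and that of 17q (chr17:83247131-83247400) at 12.5 in TPA replicate 2. The member of 7p (chr7:10051-16490) was an exception, at percentile 98.9 in TPA replicate 2 and absent from the other 5 libraries.

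Of the duplicated gene families at chromosome ends (WASH, DDX11L, FAM138, OR4F, TUBB8, FRG1, FRG2, DUX4 and others), 89 genes and pseudogenes had their start site in the windows, and 84 of these were open in 0 libraries (94.4%). Only 18 of the 89 were protein-coding, and 35.3% of all coding start sites of the windows were open in 0 libraries. DUX4L9 on 4q, a pseudogene of the D4Z4 repeat, and RPL23AP53 on 8p were open in all 6, FRG1 on 4q in 5 and WASH7P on 1p in 2. The member at the WASH7P start (chr1:28941-29640), with a GC content of 75.1% and all 10 sampled pieces repeated, had percentiles of 99.8 in control replicate 2 and 99.8 and 98.8 with ZnCl2, and was not called in control replicate 1 or with TPA. By contrast RPL23AP53 stood at 97.4 and 98.2 for the control, 92.4 and 89.4 for TPA and 98.6 and 94.8 for ZnCl2.

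The highest-ranked members were spread over the window. The promoter of FARP2, a guanine nucleotide exchange factor for small GTPases (chr2:241354231-241357720), stood at 99.95 and 99.98 for the control, 99.98 and 99.98 for TPA and 99.91 and 99.89 for ZnCl2. The promoters of UCKL1, a uridine-cytidine kinase family gene on 20q, and of the zinc-finger gene ZNF672 on 1q exceeded 99.4 in every library, as did a member of 8q (chr8:144766591-144769230) located 11494 bp from the start of the zinc-finger gene ZNF251. An exonic member of RTEL1 (chr20:63679291-63683700) stood between 98.96 and 99.5. The member of 22q in an intron of the ribosomal pseudogene RPL23AP7 (chr22:50759271-50760530), 58.6 kb from the end, had a GC content of only 36.6% and percentiles of 99.5 and 98.7 for the control, 99.9 and 99.9 for TPA and 99.6 and 99.3 for ZnCl2. It is the member whose AP-1 sites are printed above, with 9 sites in all and 7 of the intervals between them 51 bp long.

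The widest members were joined mainly through TPA replicate 2. The region of 19p (chr19:684381-753460) spanned 69080 bp with the start sites of PALM, a membrane-associated phosphoprotein, of MISP, an actin-bundling spindle protein, and of the serine protease gene PRSS57, because 68880 bp were called as open in TPA replicate 2 and between 2780 and 3340 bp in the others. The member of 11p at MIR210HG, host of the hypoxia-induced microRNA MIR210 (chr11:564961-600800), spanned 35840 bp, with 34850 bp in TPA replicate 2. The third, of 35880 bp, held the start sites of RTEL1 and STMN3 (chr20:63630761-63666640) and was called over its whole width in TPA replicate 2, against 1970 to 7190 bp in the others.

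Gene groups of the end windows differed in how often their start sites were open. Of the 20 housekeeping genes, 17 were open in all 6 libraries and 3 (MED16 of Mediator, NOC2L and the ribosomal protein gene RPL35A) in 5. Of 11 genes of telomere maintenance, replication and repair, 9 were open in all 6, among them the helicase gene RECQL4, with percentiles from 93.4 to 97.8, and the condensin subunit gene NCAPG2, from 92.4 to 98.4. The exceptions were RTEL1, the helicase that unwinds telomeric loops, open in 4 libraries, and the recombination gene RAD52, also in 4. Over all 623 coding start sites 43.3% were open in all 6 libraries, against 40.5% of the 17903 elsewhere, and 35.3% in 0, against 38.7%.

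Zinc-finger genes, whose products need Zn2+ to fold, had 59 coding start sites in the windows, of which 31 were open in all 6 libraries, 11 in some and 17 in 0. Some of these genes share a region, since the 31 lay in 28 regions. ZNF250 and ZNF7 on 8q, ZNF692 on 1q and ZNF584 on 19q stood at percentile 93.3 or higher in every library. Of the Zn2+ handling genes, the intestinal importer gene SLC39A4 on 8q was called at its start site in ZnCl2 replicate 1 alone, at percentile 88.0, and the metallochaperone gene ZNG1A in 0 libraries. Of 10 genes of chromatin regulation, 5 were open in all 6. ZMYND11, a reader of histone H3 lysine methylation, was open in 0 at the start site used, and starts inside the gene were not examined.

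Clusters with known tissue use differed inside themselves. In the alpha-globin locus of 16p, NPRL3, which carries the globin enhancers in its introns, was open in all 6 libraries, the globin genes HBA1, HBA2 and HBQ1 in 5, 2 and 2, and HBZ and HBM in 0. In the interferon-induced IFITM cluster of 11p, IFITM1 was open in 5 libraries, IFITM3 in 1 and IFITM2 and IFITM5 in 0, while the neighbors DEAF1, HRAS, IRF7, PSMD13, RNH1 and SIRT3 were open in all 6. Of 19 epithelial and signalling genes 9 were open in all 6, and PTK6, a tyrosine kinase of epithelia on 20q, had percentiles from 85.2 to 96.0. Of 198 defensin, olfactory receptor, immunoglobulin heavy-chain and other blood or nerve cell genes and pseudogenes, 188 were open in 0 libraries (94.9%). Only 56 of the 198 were protein-coding, and 35.3% of all coding start sites of the windows were open in 0 libraries. The opioid-related receptor gene OPRL1 on 20q and the immunoglobulin pseudogene IGHV4-80 on 14q were open in all 6.

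Chromosome arms differed widely. Of 44 arms, 39 had members, and the 5 short arms of chromosomes 13, 14, 15, 21 and 22 have no sequence in these windows of hg38. The density of members exceeded that of the rest of the same chromosome on 30 of the 39 arms, on 27 of these in all 6 libraries, and their GC content was higher on 36. The density was highest on 13q, with 33 members and 2.92-fold, followed by 3q with 39 and 2.76-fold and 11p with 44 and 2.54-fold, and 8q, 16q, 7p, 16p and 20q also exceeded 2-fold.

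At the other extreme 3p had 2 members and 0.135-fold, the telomere array described above and 1 more, and the densities of 6p, 11q, 1q, 10p and 8p were 0.598-, 0.603-, 0.655-, 0.713- and 0.765-fold. The mean percentile of members was highest on 8q (72.4 against 50.8 on the rest of chromosome 8) and 19q (70.2 against 54.6), the end with a large zinc-finger cluster, and lowest on 3p (17.3) and 14q (24.1 against 48.5), the end with the immunoglobulin heavy-chain genes. On 4q all members held a repeated piece and on 1p 78.1%. Over the 39 arms the number of members followed that of coding start sites (Spearman's rho 0.711, Pearson's r 0.685), a description over arms that share the same libraries.

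**Figure D2:**
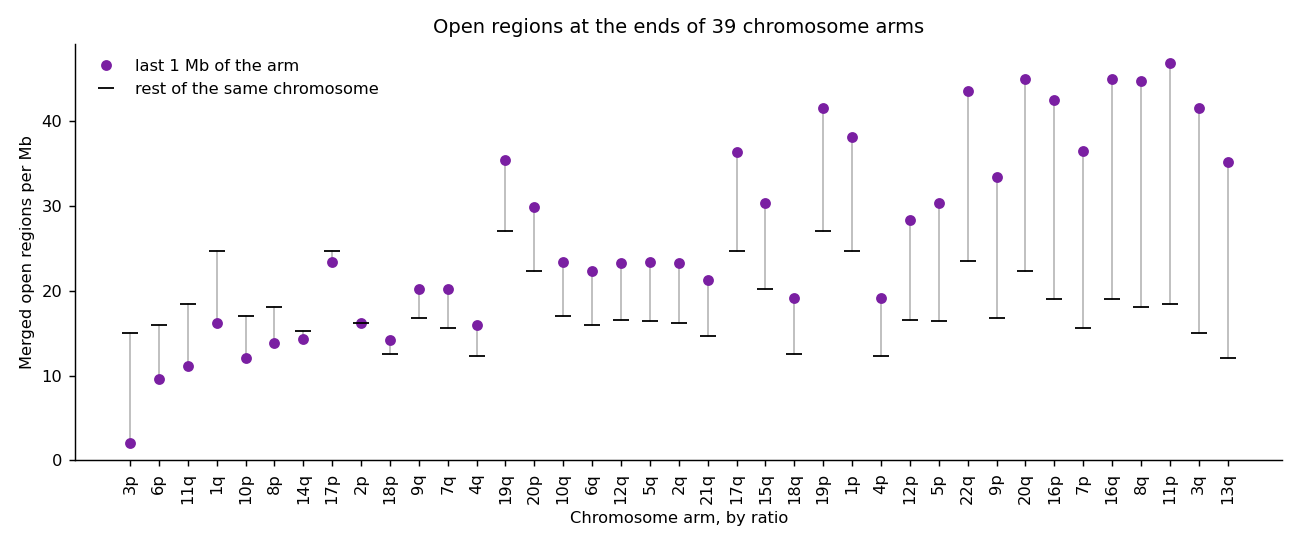
Density of members by chromosome arm: points give merged open regions per Mb in the last 1 Mb of each arm and dashes the same for the rest of that chromosome, with arms in order of the ratio. The ratio runs from 0.135 on 3p to 2.92 on 13q, and on 30 of 39 arms the point lies above the dash.

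The subtelomeric share of each list was then compared between treatments, as zinc depletion or supplementation could change the ends and the rest unequally. It was lowest with TPA and highest with ZnCl2. It was 2.39 and 2.05% in the control libraries, 1.97 and 1.84% in the TPA libraries and 2.501 and 2.90% in the ZnCl2 libraries. The 3 groups did not overlap. The difference was -0.312 points for TPA against control and 0.483 points for ZnCl2 against control (exact permutation test, two-sided, p = 0.333 in either case, n = 2 against 2, the smallest p this test allows, and adjusted p = 1 over 6 treatment comparisons), so neither reached 0.05. Both comparisons share the control libraries.

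With an equal number of regions per list the replicates came closer to each other. The 18597 highest-scoring regions included 464 and 457 subtelomeric regions in the control (2.495 and 2.46%), 407 and 407 with TPA (2.19% in both) and 534 and 540 with ZnCl2 (2.87 and 2.90%). The differences were -0.288 and 0.411 points, larger than the gap between the replicates of any group, and again with an exact permutation p of 0.333. Without a promoter the shares kept this order, at 1.68 and 1.71%, 1.46 and 1.52%, and 2.30 and 2.33%, and so they did among regions without a repeated piece, at 2.20 and 2.04%, 1.84 and 1.81%, and 2.36 and 2.39%. Among regions with a promoter control and ZnCl2 overlapped, at 3.66 and 3.42% against 3.57 and 3.66%, and TPA had 3.40 and 3.29%. By class of GC content the order did not hold throughout. From 45 to 55% the shares were 1.11 and 1.32% for the control, 1.03 and 1.24% for TPA and 1.57 and 1.46% for ZnCl2, so that ZnCl2 lay above the control while TPA overlapped it. Under 45% both treatments lay above the control, with 0.250 and 0.467%, 0.516 and 0.471%, and 0.489 and 0.887%. From 55 to 65% the groups overlapped, with 3.09 and 4.92% for the control, 3.16 and 3.33% for TPA and 3.43 and 4.85% for ZnCl2. They also overlapped at 65% or more, with 8.38 and 12.4%, 9.57 and 9.35%, and 12.3 and 11.8%. TPA therefore lay below both control libraries in 0 of the 4 classes and ZnCl2 above both in 2, and the part of GC content in the result was not tested further.

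**Figure D3:**
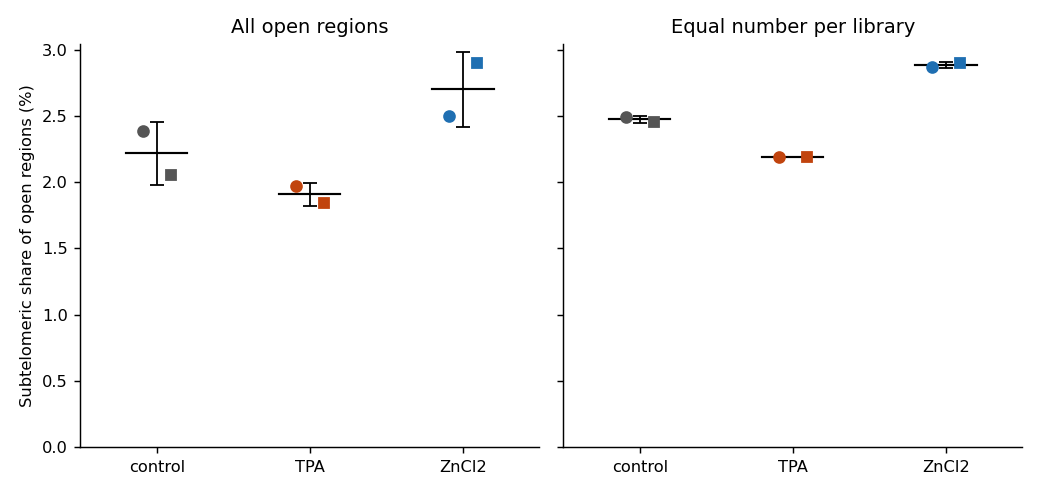
Subtelomeric share of the open regions of each library, with all regions and with an equal number of regions per list: points are libraries and horizontal bars are group means with their SD, in percent. With an equal number the control lies at 2.46 to 2.495%, TPA at 2.19% and ZnCl2 at 2.87 to 2.90%.

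With all regions, the ends moved little in rank and width relative to the rest. The excess of the mean percentile of subtelomeric over other regions differed by -0.492 between TPA and control and by -0.155 between ZnCl2 and control (exact permutation p = 0.667 and p = 1), and the excess of the median width by -30 and -67.5 bp (exact permutation p = 1 for both). These 4 differences were smaller than the SD between the control replicates, which was 0.718 percentile points and 134 bp. With an equal number the percentile excess differed by -1.14 for TPA (exact permutation p = 0.333, the smallest this test allows) and by -0.254 for ZnCl2. It was 3.06 and 4.22 with TPA, below the 5.24 and 4.31 of the control, whose SD was 0.655. The width excess then differed by -82.5 bp for TPA and -27.5 bp for ZnCl2.

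Single members that changed sides were few. Gained members, called in each treated library but in no control library, numbered 5 with TPA (0.501%, where 2.05% of all merged regions were gained), and lost members, the reverse, numbered 21 (2.104%, where 0.694% were lost). With ZnCl2 there were 8 gained members (0.802%, where 0.169% of all were gained) and 8 lost members (0.802%, where 1.73% were lost). With an equal number of regions TPA gained 13 (1.30%, background 2.00%) and lost 47 (4.71%, background 2.41%), and ZnCl2 gained 38 (3.81%, background 1.68%) and lost 10 (1.00%, background 1.91%). These counts have no test. Leaving out a library loosens the rule for gained and lost members, so it can only keep or raise a count. Without control replicate 1 the members lost with TPA numbered 160, and without ZnCl2 replicate 2 those gained with ZnCl2 numbered 125.

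The 21 members lost with TPA had a mean GC content of 59.4% ± 6.71 (SD over regions), against 56.1% ± 8.07 over all members and 53.7% over the regions lost elsewhere. By class of GC content, 1 of 104 members under 45% was lost with TPA (0.962%, against 0.256% of the rest), 2 of 334 from 45 to 55% (0.599% against 0.561%), 14 of 415 from 55 to 65% (3.37% against 1.70%) and 4 of 145 at 65% or more (2.76% against 2.82%). The shares at an equal number were 1.92% against 0.664%, 2.40% against 2.32%, 6.75% against 6.29% and 6.21% against 5.37%. For losses with TPA the members and the rest thus lay closer to each other within GC classes from 45% upwards. The class of 55 to 65% with all regions was an exception. Of members gained with ZnCl2, 2 lay in each class, at 1.92% against 0.0994% of the rest, 0.599% against 0.163%, 0.482% against 0.227% and 1.38% against 0.671%. With an equal number they exceeded the rest in each class but that of 55 to 65% (2.65% against 3.25%).

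**Figure D4:**
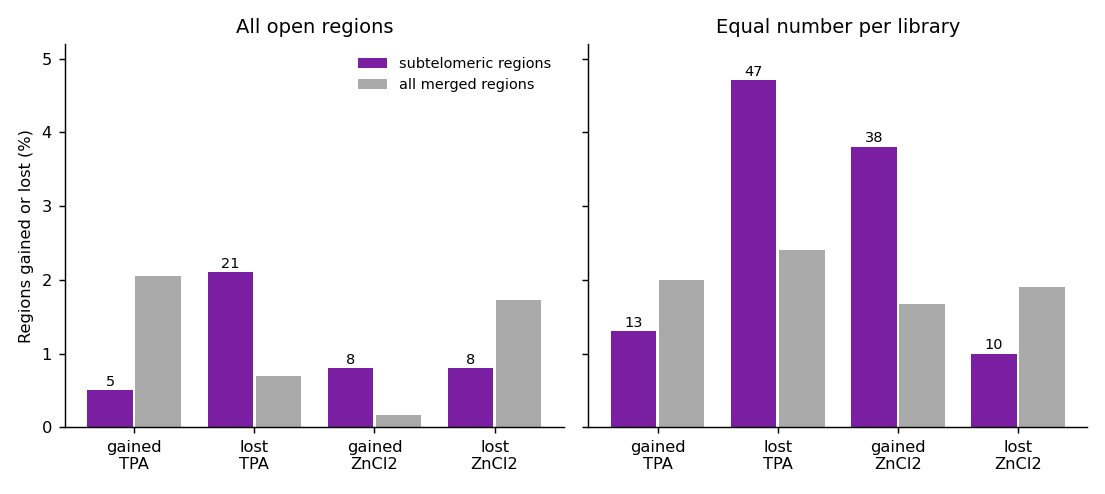
Percentage of members and of all merged regions gained or lost with each treatment, with all regions (left) and with an equal number per list (right): bars start at 0 and the digits above them count members. Members lost with TPA and gained with ZnCl2 lie above all merged regions in both panels, and members gained with TPA and lost with ZnCl2 lie below.

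The 3 members of highest mean percentile among those gained with TPA follow. An exonic member of ADPRHL1, a heart-expressed relative of ADP-ribosylhydrolases (chr13:113410117-113412076), stood at percentiles 48.3 and 62.0 with TPA and 3.52 in ZnCl2 replicate 1. The member in an intron of TTLL8, a tubulin glycylase gene (chr22:50027201-50028940, printed above with its AP-1 sites), stood at 23.7 and 37.9 and at 30.2 in ZnCl2 replicate 1. The third lay outside genes on 6p (chr6:219461-220350), at 12.9 and 25.4 and at 30.2 in ZnCl2 replicate 1. All 3 were thus also called in 1 ZnCl2 library. With an equal number only that of ADPRHL1 was still among the members gained with TPA.

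Members lost with TPA had ranks from low to high, with a median over the 21 of 26.8 in mean percentile (9.78 to 82.9), against 22.8 over the 5 gained (16.7 to 37.9). Of the 21, 19 were called in at least 1 ZnCl2 library and 12 in both. The 3 with the highest mean percentile are given here. The member in an intron of DUX4 on 4q (chr4:190177411-190178880), the germline transcription factor gene of the D4Z4 array, stood at 92.1 and 64.4 in the control and 92.3 in ZnCl2 replicate 1, and 9 of its 10 pieces were repeated. An exonic member of CHID1, a chitinase-domain gene (chr11:874421-878520), stood at 70.4 and 66.2 in the control and 90.7 and 92.4 with ZnCl2. The member 6338 bp from the start of B4GALNT3, a glycosyltransferase gene (chr12:452731-454470, printed above with its CTCF core), stood at 42.3 and 83.1 in the control and 95.2 and 89.0 with ZnCl2. The 21 also included the start sites of the riboflavin transporter gene SLC52A2 on 8q, of AHRR, a repressor of the aryl hydrocarbon receptor, on 5p, of SIGIRR, an inhibitor of interleukin-1 receptor signalling, on 11p, and of TLCD3A on 17p. In control replicate 1 these start sites stood at only 20.3, 9.03, 4.59 and 16.7. With an equal number they were not among the 47 members lost with TPA, and that of TLCD3A counted as gained with ZnCl2. The 3 members of highest mean percentile were still among the 47.

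Of the 8 members gained with ZnCl2, 7 held at least 1 repeated piece (87.5%), as did 73.0% of the regions gained elsewhere. The highest was an exonic member of RPH3AL, an effector of RAB GTPases in secretion (chr17:215491-216380), at 96.6 and 90.7, whose tandem repeat is printed above and of whose 10 pieces 3 were repeated. Next came 2 members of 12p, the CpG-rich one at the promoter of the pseudogene DDX11L8 (chr12:10671-11530) at 94.7 and 71.6 and one outside genes (chr12:40331-40980) at 82.7 and 73.9. None of these 3 was called in another library. The remaining 5 included the telomere array of 1q and an intronic member of OPRL1 (chr20:64087741-64089000), which TPA replicate 2 also called at percentile 0.

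With all regions, members lost with ZnCl2 had a mean GC content of 44.1% ± 4.03 (SD over 8 regions). This was below the 56.1% of all members but above the 41.3% of the regions lost elsewhere. Of the 8, 0 held a promoter, beside 4.45% of those lost elsewhere. The highest lay in an exon of FAM120B, a coactivator gene (chr6:170404831-170406310), at 4.59 and 53.1 for the control and 51.6 and 64.4 under TPA. The member of 2p (chr2:70791-72570), printed above with a pair of AP-1 sites, stood at 4.59 and 28.4 for the control and 66.7 and 43.4 under TPA. The member of NINJ2, an adhesion molecule of nerve injury (chr12:631661-633370), stood at 16.7 and 35.8 for the control and 37.1 and 51.4 under TPA. A pair of members, on 5p (chr5:407141-408700, an AHRR intron) and 5q (chr5:181120011-181122460), were open in both control libraries alone and so counted as lost with both treatments. With an equal number the 10 members lost with ZnCl2 did not include those named here, and that of FAM120B counted as gained with TPA. The 10 had a mean GC content of 52.6% ± 8.24 (SD over regions), against 43.5% of the regions lost elsewhere. Of them 4 held a promoter (40%, beside 12.9% elsewhere).

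Ranks were compared over the 401 members open in all 6 libraries, in lists of unequal length. With TPA 68 stood above both control libraries in both treated libraries (16.96%, where 23.0% of all regions open in 6 did) and 94 below (23.4%, where 15.9% did). With ZnCl2 20 stood above (4.99%, where 2.57% did) and 43 below (10.7%, where 17.7% did). With an equal number, 284 members were open in all 6 (28.5%, background 22.9%), and TPA placed 47 above (16.5%, background 25.9%) and 92 below (32.4%, background 24.2%), while ZnCl2 placed 74 above (26.1%, background 20.4%) and 38 below (13.4%, background 23.1%). The ZnCl2 count above thus moved from 20 to 74 with the length of the lists. Leaving out a library can only keep or raise these counts too. It gave up to 211 above with TPA without control replicate 2 and 253 below without control replicate 1.

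The member with the largest gap above control, chosen after its values were seen, was that of 10p outside genes (chr10:264101-265670), 134798 bp from the start site of ZMYND11. Its percentiles were 0 and 42.5 for the control, 99.8 and 99.7 for TPA and 69.8 and 60.3 for ZnCl2, so that both treatments exceeded both control libraries. In lists of equal number it was called in neither control library and stood at 99.6 and 99.4 for TPA and 39.4 and 60.3 for ZnCl2. It held 19 AP-1 sites in 1570 bp, 15 of the intervals being 59 bp. Its central 300 bp held 5 sites, and 0.0269% of all merged regions held as many or more there. Only 2 of its 10 pieces had another exact copy.

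Such AP-1 arrays were rare, and this motif was singled out after the values were seen. At least 5 TGANTCA sites in the central 300 bp were present in 13 merged regions, of which 4 were members, and at least 3 in 273, of which 6 were members. The other members with at least 5, beside 10p and 22q, were in an exon of the pseudogene AFG3L1P on 16q (chr16:89994161-89996380, 45 sites, commonest spacing 27 bp), called in ZnCl2 replicate 1 alone at 65.5, and in an intron of LINC00452 on 13q (chr13:113913214-113914384, 14 sites, commonest spacing 45 bp), called in control replicate 2, TPA replicate 2 and both ZnCl2 libraries at 67.1, 58.1, 83.2 and 21.5. The member of 5p in TRIP13, a gene of checkpoint and meiotic control (chr5:910451-914480, 3 sites), stood at 90.3 and 89.9 for the control, 95.6 and 97.2 for TPA and 93.9 and 89.0 for ZnCl2. The arrays thus differed in the libraries that called them and in rank, and no test was made over them.

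The largest gap below control with TPA was that of a member in an exon of MED16 on 19p (chr19:871891-874620), at 60.4 and 65.3 for the control, 9.95 and 12.5 for TPA and 70.7 and 50.9 for ZnCl2. It held 12 GC boxes, 5 of them in its central 300 bp, as many or more of which were present in 1.14% of all merged regions. The promoter pair of VPS9D1 and the zinc-finger gene ZNF276 on 16q (chr16:89717451-89724820) stood at 74.2 and 70.2 for the control, 30.5 and 31.9 for TPA and 88.3 and 77.7 for ZnCl2. The start site of TMEM255B on 13q (chr13:113758224-113760355) stood at 78.7 and 79.8 for the control, 0 and 43.4 for TPA and 79.4 and 82.4 for ZnCl2. IRF7, the master regulator of type I interferon genes on 11p (chr11:611341-621760), stood at 89.2 and 87.9 for the control, 53.3 and 44.997 for TPA and 92.1 and 92.7 for ZnCl2. In lists of equal number the members of MED16, VPS9D1 and TMEM255B were called in both control and both ZnCl2 libraries and in neither TPA library, with control percentiles of 47.5 and 18.6, 65.8 and 30.1, and 71.7 and 52.6. That of IRF7 then stood at 85.7 and 71.6 for the control, 11.5 in TPA replicate 1 alone and 84.0 and 92.7 for ZnCl2. These members were chosen after their values were seen and the gaps have no test.

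With ZnCl2 the largest gap above control was that of a member 5618 bp from the start of METRNL, a secreted factor (chr17:83072291-83075690), at 42.3 and 35.8 for the control, 23.7 and 9.60 for TPA and 84.9 and 70.4 for ZnCl2. The largest gap below control was that of a member of 2p outside genes (chr2:68021-69040), at 56.4 and 79.8 for the control, 92.0 and 99.0 for TPA and 34.4 and 13.7 for ZnCl2. In both cases the TPA libraries lay on the other side of the shared control libraries. At equal length of the lists the first was called in control replicate 1 at 23.4, in both ZnCl2 libraries at 69.6 and 70.4 and in neither TPA library, and the second stood at 42.2 and 52.6 for the control, 84.9 and 97.8 for TPA and 13.7 in ZnCl2 replicate 2 alone.

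Over the members open in all 6 libraries, the direction under TPA was set beside motif content as a description. Of the 44 with an AP-1 site, 12 stood above control with TPA (27.3%, and 35.7% of such regions elsewhere) and 6 below (13.6%, and 6.04% elsewhere). Of the 357 without one, 56 stood above (15.7%, and 20.5% elsewhere) and 88 below (24.6%, and 17.8% elsewhere). Of the 179 with a GC box, 52 stood below (29.1%, and 24.4% of such regions elsewhere), and of the 222 without one, 42 (18.9%, and 11.3% elsewhere). In lists of equal number, 9 of 30 members with an AP-1 site stood above (30.0%, and 40.2% elsewhere) and 38 of 254 without one (14.96%, and 23.3% elsewhere), and 45 of 132 with a GC box stood below (34.1%, and 35.2% elsewhere) and 47 of 152 without one (30.9%, and 17.8% elsewhere). The share below control among members with a GC box thus exceeded that of the rest with all regions and not with an equal number. Members with and without a GC box differed less with an equal number (34.1 and 30.9%) than with all regions (29.1 and 18.9%).

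**Figure D5:**
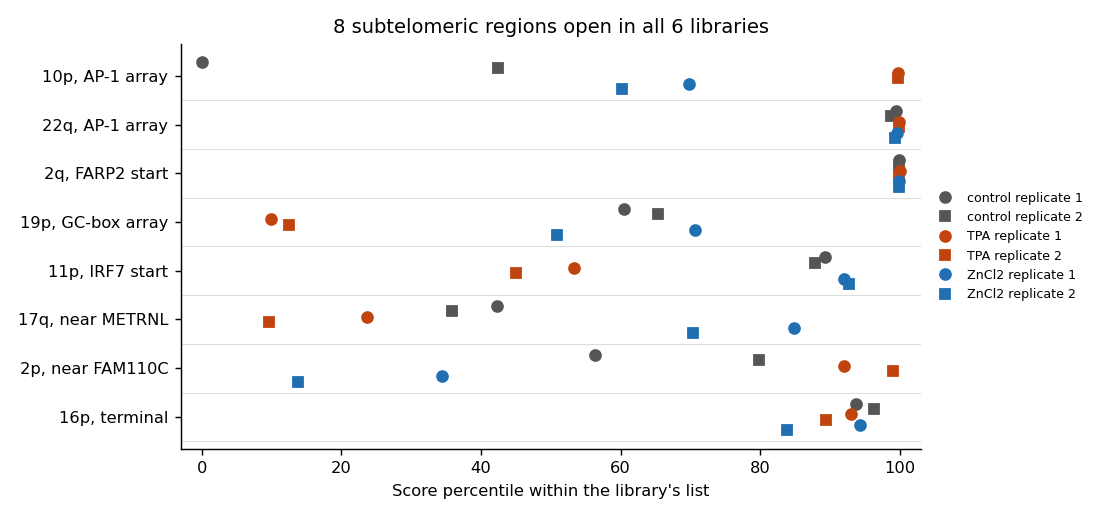
Score percentile within each library's list, on the horizontal axis, of 8 members open in all 6 libraries: circles are replicate 1 and squares replicate 2, colored by condition. The AP-1 array of 10p lies at 99.7 to 99.8 with TPA and at 0 and 42.5 in the control, whereas the GC-box array of 19p lies at 9.95 and 12.5 with TPA and at 60.4 and 65.3 in the control.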

How the data were processed

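The 6 deposited lists of open regions, 1 per library, were analysed. For these the authors used BBDuk for adapter removal, HISAT2 for alignment to hg38 and HMMRATAC for region calling, in each library without pooling replicates. The submitters' processing notes name FastQC 0.11.8, HISAT2 2.1.0 and SAMtools 1.8, and the version of HMMRATAC is not given in the sources used here. The score in the deposited lists is a whole number of at least 30 that the authors' caller assigned, and its kind is not given in the sources used here. It was used only as a rank within its list. The authors' later merging, blacklist filter and read-count tests were not used here. GC content, motifs and repeated pieces (10 stretches of 50 bp per region, searched on both strands) came from hg38, and gene models from GENCODE 44, of which those with a RefSeq entry were kept (38611 of 59578, 64.8%). Genes of duplicated families share near-identical copies, so their calls are uncertain.

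Libraries were compared by two-sided exact permutation tests, with sign flips over 6 libraries for ends against the rest (smallest p 0.0312, Benjamini-Hochberg over 6 measures) and 2 against 2 for treatments (smallest p 0.333). A member took the highest percentile of its calls in a library. Alternatives were an equal number of regions, the upper 50% by score, windows of 500 kb and 2 Mb, and windows counted from the first base that is not N. Others were regions without promoters or without repeated pieces, calls covering at least 50% of a merged region, each library left out and the replicate number as a block. Each chromosome was also compared with itself, the values then being averaged over chromosomes. The replicate numbers pair no libraries in the sources used here.

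Named regions were, by rule, the 8 nearest to an end, the 6 highest in mean percentile among those open in all 6 libraries, the 3 widest, up to 3 gained or lost per treatment and up to 5 with tandem TTAGGG, of which some are not reported here. Named genes were those of lists of families at the ends. Other regions were chosen after their values were seen. The rule for members, the lists and the tests were chosen with earlier results of these data known. The procedures were tested on simulated data. Software was samtools 1.23.1, Biopython 1.88, pysam 0.24.0, pandas 2.3.3 and Python 3.11.15 with SciPy 1.17.1, Matplotlib 3.10.9 and NumPy 2.4.6.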

Additional observations from a re-analysis of the deposited data

How the results depend on the processing

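The higher density, GC content and promoter share of regions at the ends were higher in 6 of 6 libraries under every alternative that kept all libraries, with log2 density ratios from 0.36 to 0.95, GC differences from 6.79 to 9.83 points and promoter differences from 8.53 (center of the region inside the promoter) to 19.7 points (exact permutation p = 0.0312 in each). With 1 library left out, 0.0625 is the smallest p that 5 libraries allow, and the values ranged from 0.67 to 0.81 for the log2 density ratio, 287 to 325 bp for width, 7.98 to 8.42 points for GC, 4.86 to 5.25 for percentile, 15.6 to 17.4 points for promoters and 2.08 to 2.73 points for open coding start sites. The width difference was 136 bp with windows of 500 kb (exact permutation p = 0.0938) and 89.2 bp without promoter regions, where the percentile difference was 1.62. The difference in open coding start sites was 2.11 points with an equal number and 1.97 with the upper 50% by score, neither reaching 0.05 (exact permutation p = 0.0938). It was -0.42 with 500 kb and -1.91 without repeated pieces, and the cause was not tested. With 2 Mb it was 3.50, from the first base that is not N 2.73, and with each chromosome compared with itself 4.37 (exact permutation p = 0.0312 in each). The treatment differences in subtelomeric share kept their sign in all alternatives, from -0.548 to -0.143 points for TPA and from 0.248 to 0.818 for ZnCl2. Those in percentile turned to 0.233 (upper 50%) and 0.622 (500 kb) for TPA and 0.602 (upper 50%) for ZnCl2, and those in width to 32.5 bp (500 kb) for TPA and 17.5 bp (upper 50%) for ZnCl2. With 1 library left out, they ranged from -1.48 to 0.496 and from -125 to 65 bp for TPA, and from -0.662 to 0.353 and from -162.5 to 27.5 bp for ZnCl2. With the replicate block the share differed by -0.312 points for TPA and 0.483 for ZnCl2 (exact permutation p = 0.5, the smallest that 2 pairs allow), and by -0.288 and 0.411 with the replicate block and an equal number, an alternative chosen after seeing the data. No call existed that the block could change.

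Members gained with TPA numbered 13 with an equal number, 10 with the upper 50%, 2 with 500 kb and 21 with 2 Mb, and members lost 47, or 13 with calls covering at least 50%, 9 with 500 kb and 42 with 2 Mb. Members gained with ZnCl2 numbered 38 with an equal number, and members lost 4 with 500 kb and 14 with 2 Mb. Leaving out 1 library can only keep or raise the counts gained and lost. With TPA it gave 8 to 102 members gained and 21 to 160 lost. With ZnCl2 it gave 9 to 125 members gained and 8 to 101 lost. Members open in all 6 libraries numbered 218 with the upper 50%, 148 with calls covering at least 50%, 166 with 500 kb and 814 with 2 Mb. The GC, promoter and repeat classes, the ranks of members open in all 6 libraries, with their values at an equal number, and the motif counts were also chosen after seeing the data. Without read counts, an absent call may be a site below the caller's threshold, and the exact permutation test cannot reach 0.05 with 2 libraries per condition.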
